A study of Homo sapiens with 6 samples.

Results

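The autophagy core machinery was followed here through 37 genes out of 33496 listed in the deposited tables. They comprise 5 cargo receptors, 5 ATG8 proteins, 5 genes of the ULK1 initiation complex, 5 of the PI3-kinase nucleation complex, 5 for ATG9, lipid transfer and PI3P binding, 6 of the conjugation machinery, 4 ATG4 proteases and the transcription factors TFEB and TFE3. The genes were chosen by name from their known function, with earlier results of these data known, and each was found once in every library. Total RNA was measured by bulk RNA sequencing in ARPE-19, an established human retinal pigment epithelial (RPE) cell line labelled wild type. Both groups received erastin at 5 µM for 24 h, an inhibitor of the cystine/glutamate antiporter that drives ferroptosis, a lipid peroxidation-dependent cell death. Cells of the Era group (n = 3) received erastin without vitamin K1 (VK1), and cells of the Era+VK group (n = 3) were given VK1 at 10 µM for 1 h beforehand. The comparison asks what VK1 pretreatment changed in erastin-treated cells, and it holds no library of untreated cells or of VK1 alone.

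Autophagy encloses cytoplasm in a double membrane and delivers it to the lysosome. The ULK1 kinase complex starts the process, a class III PI3-kinase complex marks the site with PI3P, ATG9 vesicles and ATG2 proteins supply lipid, and a ubiquitin-like cascade attaches ATG8 proteins (the LC3 and GABARAP families) to the growing membrane, where cargo receptors dock. In retinal pigment epithelium the pathway is known for clearing damaged organelles and, through LC3-associated phagocytosis, shed photoreceptor outer segments, and selective autophagy of ferritin is known to release the iron that feeds ferroptosis. Flux through the pathway is set largely by phosphorylation, lipidation and protein turnover, which transcript levels do not measure.

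All values are FPKM, fragments scaled by transcript length and by the number of mapped fragments in the library, which permits levels of different genes to be compared per unit length. Differences were fitted on log2(FPKM + 1), Era+VK minus Era, a scale that understates the fold change of low genes. Adjusted p-values are Benjamini-Hochberg values from limma over the 11981 genes whose mean FPKM reached 1. The read depth behind the values is unknown, and the labels do not say whether replicates were separate cultures, so the p-values measure the spread between these libraries. In bulk RNA, fewer cells of a kind cannot be told apart from less RNA per cell.

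Era+VK replicates 2 and 3 stood apart from the other libraries. Their summed globin transcripts reached 235 and 228 FPKM, against 0.24 to 0.61 FPKM in the other 4 libraries. GATA1, the master regulator of erythroid cells, was at 2.35 and 2.27 FPKM in these libraries and listed at 0 in the others. Of 11 RPE markers, 6 were at or above 1 FPKM in every library, while the visual cycle genes RPE65 and RLBP1 did not exceed 0.02 and 0.29 FPKM. The RPE marker BEST1 varied widely within both groups, at 2.65, 0.65 and 56.98 FPKM in Era and 36.45, 0.60 and 4.80 in Era+VK. Mitochondrially encoded genes took 16.0% to 18.5% of the summed FPKM in all 6 libraries.

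Transcripts of the autophagy machinery differed little between Era and Era+VK. Of the 36 members that passed the filter on low values, 0 had an adjusted p under 0.05 in limma, where 0.618% of all genes tested did. At an unadjusted p under 0.05, 4 of 36 members (11.1%) passed, beside 15.8% of all genes tested. This count was 2 without Era replicate 2 (11.3% of all genes) and without Era+VK replicate 1 (13.1%), and 8 of 35 (20.7%) without Era+VK replicate 2. It was 2 after quantile normalization, beside 13.8% of all genes, and 6 of 37 with no filter on low values, beside 8.8%. The remaining member, MAP1LC3A, had a mean of 0.562 FPKM and was tested only with no filter. Summed over the 37 members, the Era libraries held 623 ± 16.5 FPKM and the Era+VK libraries 638 ± 9.10 (SD, n = 3 each).

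The 95% intervals show which sizes of difference the 6 libraries allow. For 33 of 36 members the interval lay within ±0.3 on the log2 scale (1.23-fold of FPKM + 1), and for 36 of 36 it lay within ±0.4 (1.32-fold). The lowest bound of any member was −0.29, for MAP1LC3B, and the highest was 0.38, for GABARAPL1. The median standard error was 0.055 among members and 0.065 among all genes tested.

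**Figure D1:**
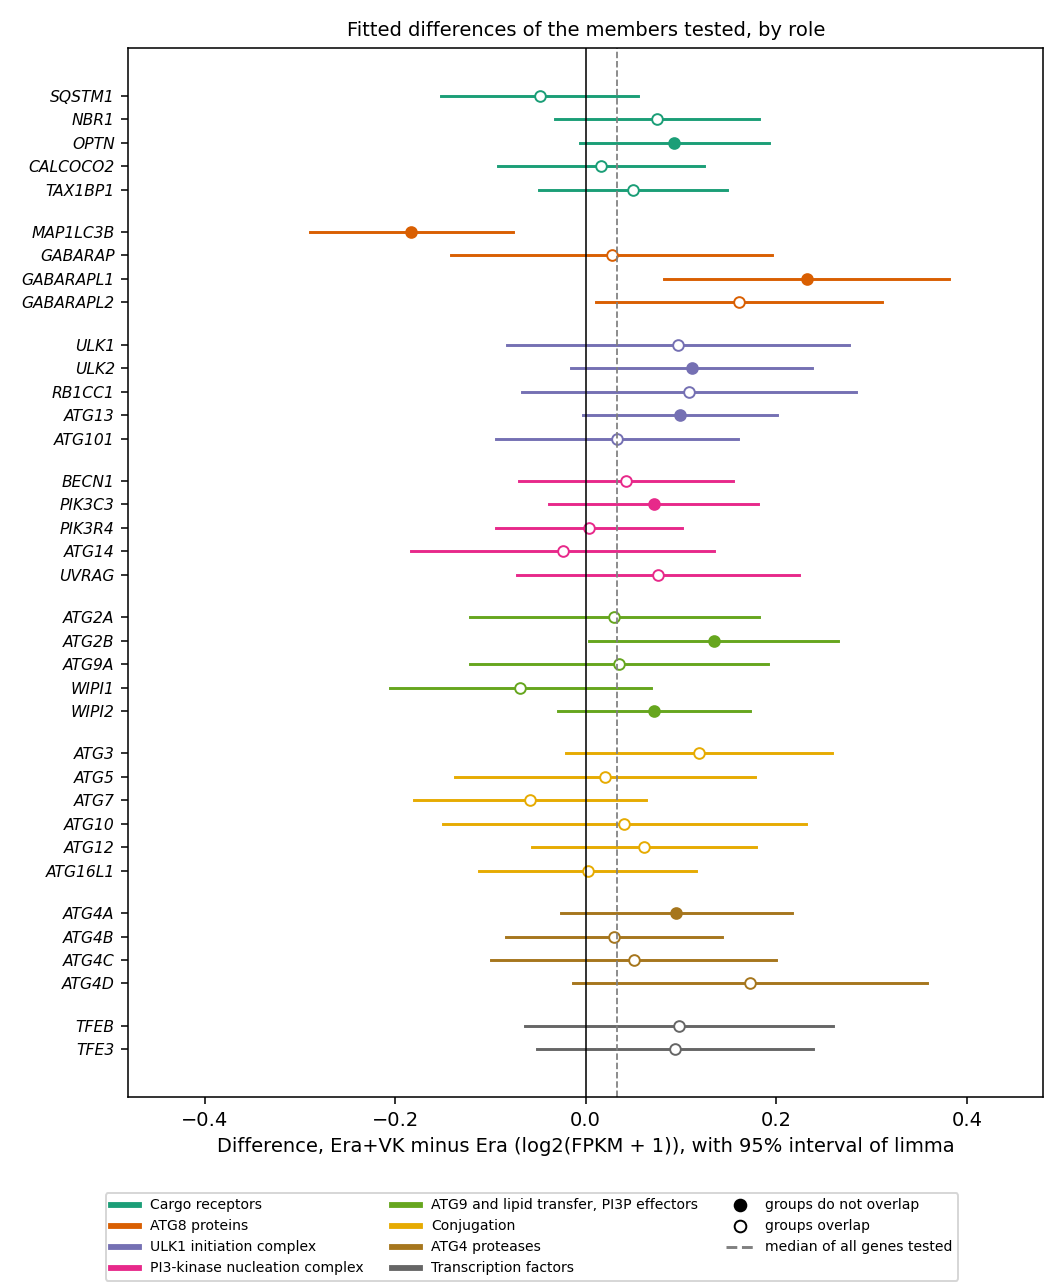
Fitted difference of each of the 36 members tested, Era+VK minus Era on the log2(FPKM + 1) scale (horizontal axis), with its 95% interval, coloured by role. Filled points mark the 9 members whose groups do not overlap, and the dashed line marks the median of all genes tested (0.03). MAP1LC3B lies farthest to the left at −0.18 and GABARAPL1 farthest to the right at 0.23.

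Small differences pointed mostly upward, in the members as in the whole table. The fitted difference was above 0 for 31 of 36 members (86.1%), beside 63.3% of all genes tested, and the median was 0.06 in members and 0.03 in all genes. After quantile normalization the split was 24 of 36 members (66.7%), beside 52.1% of all genes. Against the Era mean, the members' median was 0.07, 0.05 and 0.06 in Era+VK replicates 1, 2 and 3, while all genes gave 0.03, 0.03 and 0.04. Within Era the members' median was 0.01, −0.04 and 0.02, so all 3 Era+VK libraries lay above all 3 Era libraries in this measure, as they did for the median of all genes.

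Every Era+VK library lay outside the range of Era for 9 of 36 members (25.0%), beside 22.1% of all genes tested. Higher in Era+VK were OPTN, GABARAPL1, ULK2, ATG13, PIK3C3, ATG2B, WIPI2 and ATG4A, which made 8 of 36 (22.2%) beside 15.1% of all genes. MAP1LC3B was lower, 1 of 36 (2.78%) beside 7.04% of all genes. After quantile normalization the count was 4 of 36 (11.1%) beside 19.7% of all genes, with GABARAPL1, ATG13 and WIPI2 above and MAP1LC3B below. After rescaling without mitochondrially encoded genes it was 10 of 36 (27.8%) beside 21.3% of all genes, with 7 of the 9 kept. Whether the members lay above or below the background thus depended on the scaling. Each of the 9 has an exact two-sided permutation p of 0.1, the smallest that 3 against 3 libraries allow. Without Era+VK replicates 2 and 3, which leaves 1 library in that group, 0 of 35 members were called and 23 lay outside the range of Era, beside 63.7% of all genes.

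**Figure D2:**
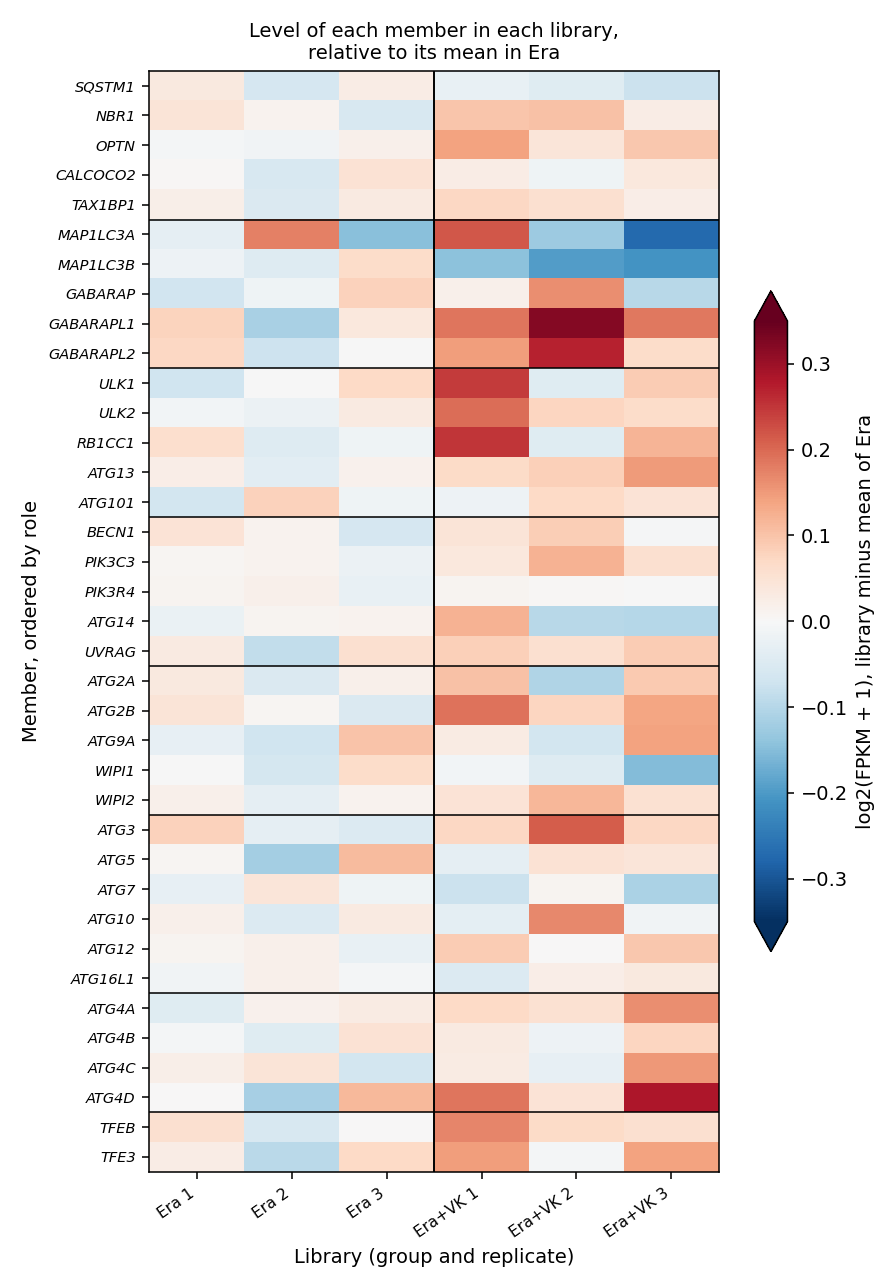
Level of each of the 37 members (rows, ordered by role) in each of the 6 libraries (columns), as log2(FPKM + 1) minus the mean of the gene in Era. Red is above and blue below that mean, from −0.27 (MAP1LC3A, Era+VK replicate 3) to 0.32 (GABARAPL1, Era+VK replicate 2), and MAP1LC3B is blue in all 3 Era+VK libraries.

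Expression levels of the members spanned more than 2 orders of magnitude, and SQSTM1 and GABARAP alone took 37.4% of the members' summed FPKM. SQSTM1 (144 FPKM over all libraries) and GABARAP (91.6) came first, followed by TFE3 (38.1), and none of these overlapped its lower neighbour in the range over libraries. A further group of OPTN (27.3), MAP1LC3B (26.9), NBR1 (26.3) and ATG9A (26.2) could not be ordered beyond its spread. In all, 27 of the 36 neighbouring pairs in the order overlapped. There were 2 members at 50 FPKM or more, 14 between 10 and 50 FPKM, 20 between 1 and 10 FPKM and 1 below. UVRAG (1.98), TFEB (1.41), ATG10 (1.01) and MAP1LC3A (0.562) were the lowest.

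Cargo receptors, which tie ubiquitinated cargo to ATG8 proteins on the membrane, were nearly level between the groups when summed. Their summed expression was 230.1 ± 6.34 FPKM in Era and 229 ± 3.92 in Era+VK, and 0 of 5 passed the test. Of this sum, SQSTM1 held 146.4 FPKM in Era and 141.6 in Era+VK. The fitted difference was above 0 for 4 of 5 receptors and below 0 for SQSTM1, with a median of 0.05. SQSTM1, the p62 receptor that also binds KEAP1, stood at 149.8, 140.4 and 149.1 FPKM in Era replicates 1 to 3 and at 143.7, 142.1 and 138.9 FPKM in Era+VK. The groups overlapped, and the fitted difference was −0.05 (95% interval −0.15 to 0.06, adjusted p = 0.641 by limma). SQSTM1 lies on chr5:179806398-179838078 (plus strand) in GRCh38, where MRNIP on the opposite strand overlaps 20.7% of its exon bases. MRNIP itself was at 4.78 FPKM.

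OPTN (optineurin), a receptor for damaged mitochondria and bacteria, was the only cargo receptor whose groups separated in the FPKM as given. Its groups overlapped after quantile normalization and after rescaling without mitochondrially encoded genes, where NBR1 separated instead. Its FPKM was 26.3, 26.2 and 26.8 in Era and 29.2, 27.2 and 28.3 in Era+VK, so that every Era+VK library was higher, by 6.93% in the means. The difference was 0.09 (interval −0.01 to 0.19, adjusted p = 0.344 by limma), and its size ranged from 0.07 without Era+VK replicate 1 to 0.12 without Era+VK replicate 2.

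NBR1, which works beside p62 in clearing protein aggregates and peroxisomes, measured 26.4, 25.8 and 24.6 FPKM in Era against 27.4, 27.5 and 26.1 FPKM in Era+VK. The lowest Era+VK library fell inside the Era range, and the difference was 0.07 (interval −0.03 to 0.18, adjusted p = 0.467 by limma). TAX1BP1, a receptor in aggregate clearance, read 21.2, 20.1 and 21.3 FPKM in Era and 22.0, 21.7 and 21.2 in Era+VK (difference 0.05, interval −0.05 to 0.15). CALCOCO2, the NDP52 receptor of invading bacteria and mitochondria, gave 10.8, 10.4 and 11.2 FPKM in Era and 11.0, 10.7 and 11.1 in Era+VK. Its difference of 0.02 (interval −0.09 to 0.12) took the opposite sign under quantile normalization and without Era replicate 2.

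**Figure D3:**
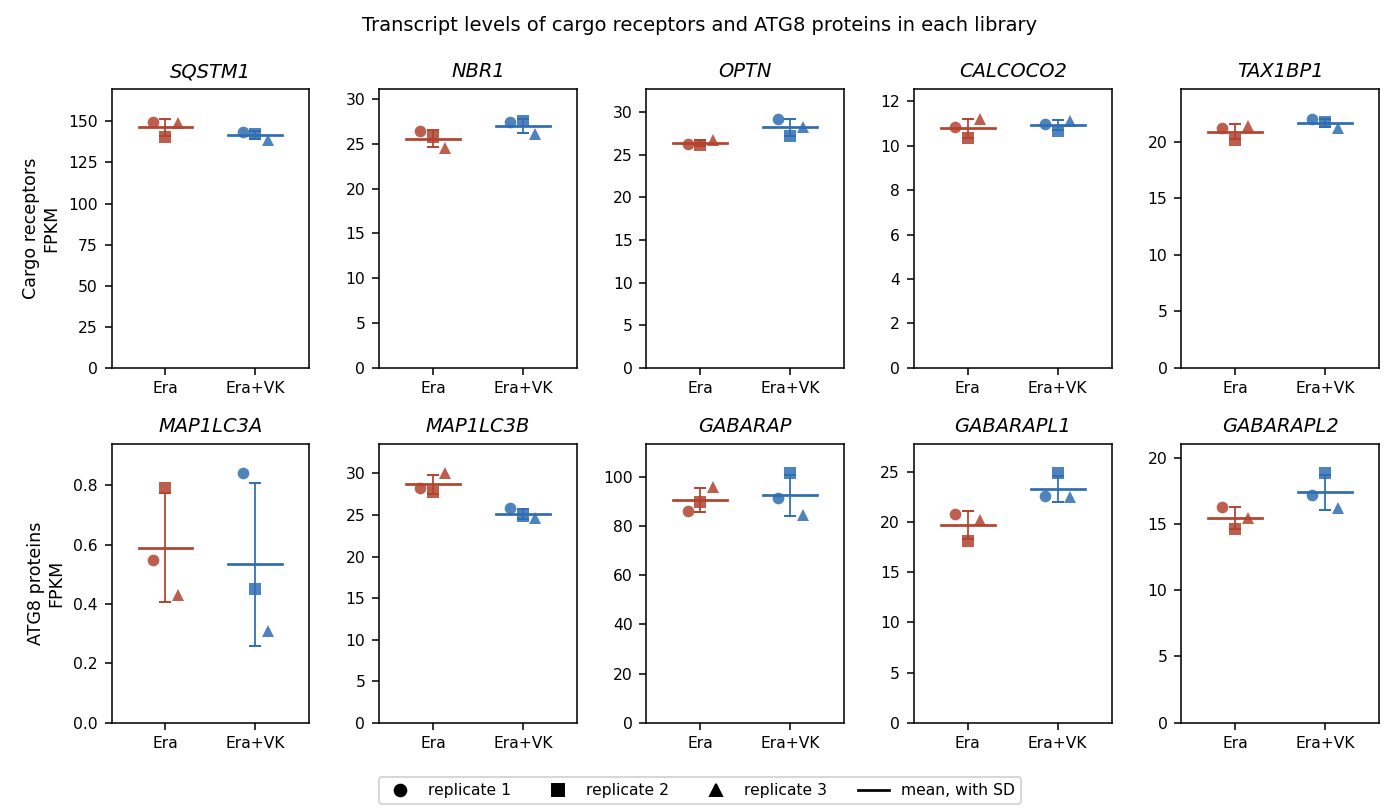
FPKM of the 5 cargo receptors (top) and the 5 ATG8 proteins (bottom) in the 3 Era and 3 Era+VK libraries, each panel on its own linear axis from 0, with points for replicates, lines for means and bars for SD. The Era+VK points of MAP1LC3B (24.7 to 25.8) lie below all Era points (27.7 to 30), and those of GABARAPL1 (22.5 to 24.8) lie above them (18.1 to 20.8).

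ATG8 proteins gave the largest differences of either sign among the members, although 0 of 4 tested passed the adjusted threshold. MAP1LC3B encodes LC3B, the protein whose lipidated form is the usual marker of autophagosomes. Its level was 28.3, 27.7 and 30 FPKM in Era and 25.8, 24.9 and 24.7 in Era+VK. Every Era+VK library was below every Era library, by 12.4% in the means, with a difference of −0.18 ± 0.05 (SE, interval −0.29 to −0.08). The adjusted p was 0.138 by limma and ranged from 0.119 to 0.338 over the 14 alternative settings, with the same sign in all of them.

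GABARAPL1, a GABARAP-family protein of the later steps of autophagosome formation, lay the opposite way. Libraries of Era held 20.8, 18.1 and 20.2 FPKM, and those of Era+VK held 22.5, 24.8 and 22.5 FPKM, again without overlap and 18.2% higher in the means. Its difference was 0.23 ± 0.06 (SE, interval 0.08 to 0.38), with an adjusted p of 0.164 by limma and of 0.138 to 0.383 over the 14 alternatives. Leaving out Era+VK replicates 2 and 3 gave a difference of 0.19 for GABARAPL1 and of −0.14 for MAP1LC3B.

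GABARAPL2 (GATE-16), also of the GABARAP family, read 16.3, 14.6 and 15.4 FPKM in Era and 17.2, 18.8 and 16.2 in Era+VK. Era+VK replicate 3 fell just inside the Era range, and the difference was 0.16 (interval 0.01 to 0.31, adjusted p = 0.292 by limma). The GABARAPL2 groups separated after rescaling without mitochondrially encoded genes. GABARAP, the most abundant ATG8 transcript, ranged from 86.4 to 95.9 FPKM in Era and from 84.6 to 101 in Era+VK, a spread that left a difference of 0.03 (interval −0.14 to 0.20). Without Era+VK replicate 2 its sign turned, to −0.04. MAP1LC3A, which encodes LC3A, was listed at 0.55, 0.79 and 0.43 FPKM in Era and at 0.84, 0.45 and 0.31 in Era+VK.

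Summed over the 5 genes, ATG8 expression was 155 ± 6.0 FPKM in Era and 159 ± 11.1 in Era+VK, of which GABARAP held 58.5% and 58.2%. MAP1LC3B made 18.5% ± 0.11 of the sum in Era and 15.9% ± 1.10 in Era+VK, and GABARAPL1 made 12.7% ± 0.86 and 14.7% ± 0.46 (SD, n = 3 each). The FPKM ratio of GABARAPL1 to MAP1LC3B, computed after their values were seen and therefore not tested, was 0.734, 0.653 and 0.672 in Era and 0.872, 0.997 and 0.911 in Era+VK. The pair joins the members with the lowest and the highest difference, so the gap between the groups follows from that choice and is given as a description.

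In GRCh38, MAP1LC3B lies on chr16:87383995-87404779 and GABARAPL1 on chr12:10212458-10223130, both on the plus strand. Of all 100-base stretches in their annotated transcripts, 3.70% in MAP1LC3B also occur in transcripts of other genes, mainly of MAP1LC3B2 (1.20 FPKM), and 2.53% in GABARAPL1. GABARAP shares 42.9% of its stretches, mainly with the overlapping gene AC120057.2 on the same strand, whereas GABARAPL2 (chr16:75566351-75577881) shares none. How far reads shared between such genes were split is not given in the sources used here.

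The ULK1 initiation complex, in which the kinases ULK1 and ULK2 act with the scaffold RB1CC1 (FIP200), ATG13 and ATG101, had fitted differences above 0 for 5 of 5 genes, with a median of 0.10 and 0 calls. ATG13, which links the kinases to FIP200, was at 18.5, 17.7 and 18.4 FPKM in Era and at 19.1, 19.4 and 20.3 in Era+VK. The groups did not overlap, and the difference was 0.10 (interval −0.002 to 0.20, adjusted p = 0.327 by limma). ULK2 was also higher in every Era+VK library, with 4.76, 4.72 and 4.93 FPKM in Era and 5.64, 5.11 and 5.07 in Era+VK. Its difference of 0.11 (interval −0.01 to 0.24, adjusted p = 0.370 by limma) came to 0.07 without Era+VK replicate 1. The ULK2 groups overlapped after quantile normalization.

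ULK1 and RB1CC1 varied more among the Era+VK libraries than among those of Era. ULK1 measured 9.46, 9.96 and 10.5 FPKM in Era and 12.0, 9.65 and 10.7 in Era+VK, and RB1CC1 measured 13.9, 12.8 and 13.1 FPKM in Era and 16.0, 12.8 and 14.5 in Era+VK. Both were highest in Era+VK replicate 1, while Era+VK replicate 2 lay within the Era range. ATG101, which stabilises ATG13, differed by 0.03, and a sign opposite to this came up in 2 of the 14 alternatives.

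The PI3-kinase nucleation complex had 0 of 5 genes called and a median difference of 0.04. PIK3C3, the catalytic subunit VPS34, was the member without overlap, at 5.55, 5.57 and 5.43 FPKM in Era and 5.68, 6.09 and 5.78 in Era+VK. The gap between the groups was narrow, and the difference was 0.07 (interval −0.04 to 0.18, adjusted p = 0.499 by limma). After quantile normalization the PIK3C3 groups overlapped. BECN1, the Beclin 1 subunit, ranged over 12.2 to 13.2 FPKM in Era and 12.7 to 13.6 in Era+VK (difference 0.04). PIK3R4, the regulatory subunit VPS15, was nearly constant, from 7.67 to 7.94 FPKM over the 6 libraries. ATG14 and UVRAG, which direct the complex to autophagosome formation and to endosomes, gave −0.02 and 0.08.

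Among the genes for lipid supply and PI3P binding, 2 of 5 separated upward without overlap, beside 15.1% of all genes, and 0 of 5 were called. After quantile normalization WIPI2 still separated and ATG2B did not. ATG2B, a lipid transfer protein between the endoplasmic reticulum and the growing membrane, was at 3.67, 3.55 and 3.37 FPKM in Era and at 4.17, 3.77 and 3.98 in Era+VK. All Era+VK libraries were higher, with a difference of 0.13 (interval 0.004 to 0.27, adjusted p = 0.306 by limma). WIPI2, the PI3P-binding protein that recruits ATG16L1, was at 12.6, 12.2 and 12.6 FPKM in Era and 12.9, 13.6 and 13.0 in Era+VK (difference 0.07, interval −0.03 to 0.17, adjusted p = 0.460 by limma). Its paralogue WIPI1 gave −0.07, ATG2A 0.03 and the scramblase ATG9A 0.04, each with overlapping groups. The gene AC068946.2 on the same strand covers 38.8% of ATG9A exon bases, and ARSG covers 24.3% of those of WIPI1 from the opposite strand.

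Conjugation genes, which carry ATG8 proteins to phosphatidylethanolamine, had a median difference of 0.03. In the FPKM as given, 6 of 6 had overlapping groups, where 22.1% of all genes tested did not overlap. ATG3, the E2-like enzyme, had the smallest p of the group, at 8.59, 7.87 and 7.77 FPKM in Era and 8.54, 9.51 and 8.53 in Era+VK. Only Era+VK replicate 2 exceeded the Era range for ATG3 (difference 0.12, interval −0.02 to 0.26, adjusted p = 0.385 by limma). The ATG3 groups separated after rescaling without mitochondrially encoded genes. The E1-like enzyme ATG7 gave −0.06, and ATG5, ATG10, ATG12 and ATG16L1, which build the complex that directs lipidation, gave 0.02, 0.04, 0.06 and 0.00.

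ATG4 proteases, which prime ATG8 proteins and later remove them from the membrane, had differences above 0 in 4 of 4 genes, a median of 0.07 and 0 calls. ATG4D had the smallest p of the group and stood at 7.67, 6.99 and 8.36 FPKM in Era and 8.85, 7.94 and 9.54 in Era+VK. Its groups overlapped, and its difference was 0.17 (interval −0.01 to 0.36, adjusted p = 0.345 by limma). ATG4A was separated, at 4.81, 5.04 and 5.10 FPKM in Era and 5.28, 5.21 and 5.69 in Era+VK (difference 0.10, interval −0.03 to 0.22, adjusted p = 0.420 by limma). The ATG4A groups overlapped after quantile normalization and after rescaling without mitochondrially encoded genes. ATG4B and ATG4C overlapped, with differences of 0.03 and 0.05.

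TFEB and TFE3, the transcription factors that drive lysosomal and autophagy genes once they enter the nucleus, both overlapped between the groups. TFE3 measured 37.5, 34.4 and 38.7 FPKM in Era and 40.9, 36.6 and 40.7 in Era+VK, with Era+VK replicate 2 inside the Era range (difference 0.09, interval −0.05 to 0.24, adjusted p = 0.502 by limma). TFEB was far less abundant, from 1.24 to 1.42 FPKM in Era and from 1.42 to 1.62 in Era+VK (difference 0.10).

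Transcripts of the ATF4 arm were set beside the members, because ATF4 and CHOP are known to raise part of the autophagy machinery in amino acid starvation and because erastin blocks cystine uptake. ATF4 fell from 134, 139 and 146 FPKM in Era to 88.2, 98.8 and 98.3 FPKM in Era+VK, a difference of −0.55 (interval −0.69 to −0.41, adjusted p = 0.0128 by limma). Its targets ASNS (−0.95), PSAT1 (−0.95) and CHAC1 (−1.19) also fell, whereas TRIB3 (−0.45, adjusted p = 0.0552 by limma) missed the threshold and DDIT3, which encodes CHOP, gave 0.07. The calls of ATF4, ASNS, PSAT1 and CHAC1 were lost without any one of the Era replicates and with no filter on low values, where the highest adjusted p by limma was 0.102, 0.074, 0.121 and 0.155, and that of CHAC1 also without Era+VK replicate 2. The list was drawn up with results on ATF4 targets in these libraries known, so its direction is not independent evidence.

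Of the 12 members counted as ATF4- or CHOP-dependent in amino acid starvation, 0 were called in the same fit, beside 0.618% of all genes tested. With so few genes, a count of 0 does not set them apart from the background. Their median difference was 0.03, and they ran from −0.18 for MAP1LC3B to 0.16 for GABARAPL2, with SQSTM1, NBR1, ATG3, ATG5, ATG7, ATG10, ATG12, ATG16L1, BECN1 and GABARAP in between. The interval of each of the 12 stayed above −0.3, on a scale that understates the fold change of low genes such as ATG10 (1.01 FPKM). Whether these genes respond to ATF4 in these cells was not tested. MAP1LC3B was the one of the 12 whose groups did not overlap, beside 22.1% of all genes tested.

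**Figure D4:**
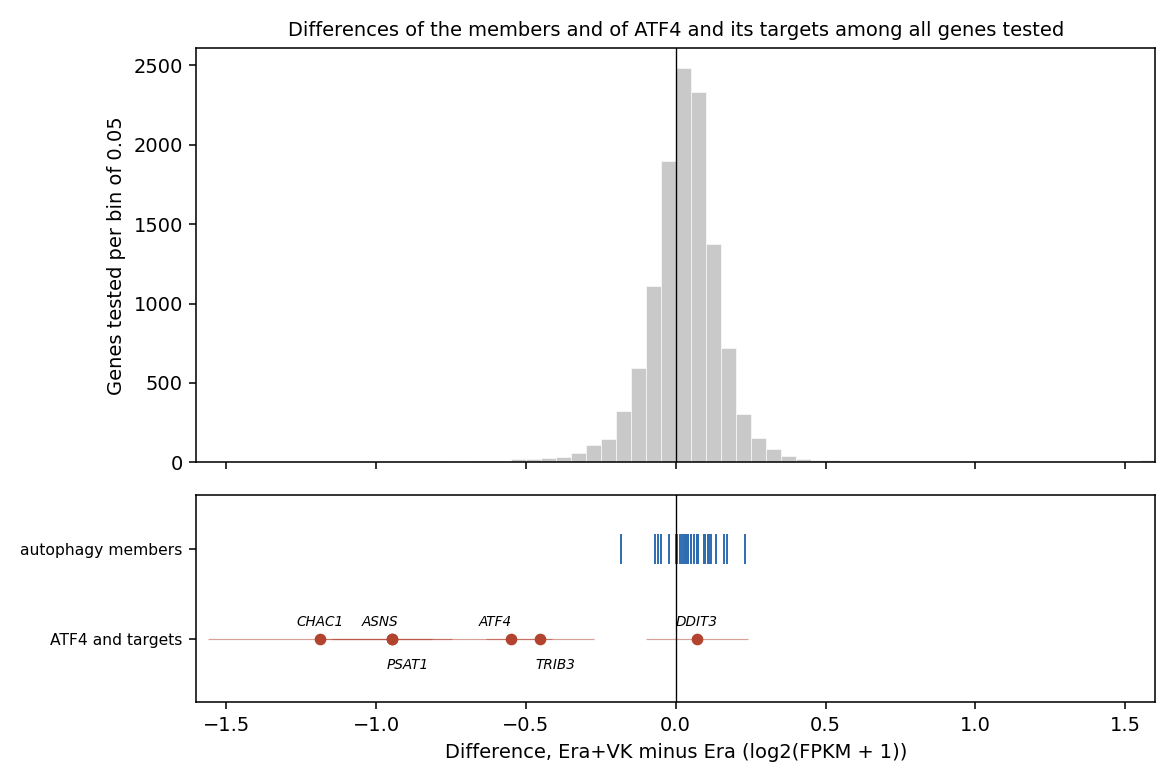
Differences on the log2(FPKM + 1) scale, Era+VK minus Era, of all 11981 genes tested (top, genes per bin of 0.05, with 12 genes beyond the ends counted in the end bins), of the 36 members (blue ticks) and of ATF4 and 5 genes tied to it (red points with 95% intervals). The members lie between −0.18 and 0.23, while ATF4, ASNS, PSAT1 and CHAC1 lie at −0.55 or below.

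Promoter sequence was read for 33 of the 37 members from 250 bases before to 50 bases after the start site (RefSeq, GRCh38.p14). It was searched on both strands for TTGCATCA, the core of the amino acid response element bound by ATF4 with partners, for TCACGTGA, the CLEAR core bound by TFEB and TFE3, and for TGACNNNGC, the core of the antioxidant response element bound by NRF2. TTGCATCA was in 0 of 33 members, beside 1.08% of the 27305 genes with a promoter entry. Among the 6 genes of the ATF4 arm it was in the CHAC1 promoter alone, while ASNS and PSAT1, which also fell, held no match. The absence of the motif from a promoter here therefore does not tell whether a member responds to ATF4. TCACGTGA was in 1 of 33 members (1.18% of all genes), and TGACNNNGC was in 3 of 33 (16.06% of all genes). In the ATF4 arm TGACNNNGC was in TRIB3, whose windows are not shown. The windows of 30 bases that hold these matches are shown because they bear on the members that can be tied by letters to a stress response, with the matched motif in capitals and each written along the strand of its gene. A match is a description of letters and not a bound site.
CHAC1: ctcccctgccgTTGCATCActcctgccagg
ATG3: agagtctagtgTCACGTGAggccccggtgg
ATG101: tgtgcttctgTGACTACGCggatgttgtgg
MAP1LC3B: gcgagtcaccTGACCAGGCtgcgggctgag
CALCOCO2: cgctcctgggGCCCGGTCAcctgaacacta

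The CHAC1 window (chr15:40953251-40953280, plus strand) has its motif starting 209 bases before the start site, in a gene that fell by 1.19 on the log2 scale. The ATG3 window (chr3:112561940-112561969, minus strand) has the CLEAR core from base 5 of the transcript, in a gene with a difference of 0.12. The TGACNNNGC matches begin 120 bases before the start in ATG101 (chr12:52069848-52069877), 46 bases before it in MAP1LC3B (chr16:87392280-87392309) and 129 bases before it, on the opposite strand, in CALCOCO2 (chr17:48830896-48830925), all plus-strand genes. Their differences were 0.03, −0.18 and 0.02, and of these only MAP1LC3B separated the groups.

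Other genes of the pathway, taken from 4 lists drawn up by function with earlier results of these data known, gave the same count of calls. Of 91 genes, 84 were tested and 0 were called, while 18 (21.4%) had an unadjusted p under 0.05 in limma and 19 (22.6%) did not overlap between the groups, beside 15.8% and 22.1% of all genes tested. Among other autophagy factors and the fusion machinery, 20 of 26 differences were above 0, the median was 0.08, 8 of 26 had an unadjusted p under 0.05 in limma, and 10 of 26 were higher and 0 lower without overlap (15.1% and 7.04% of all genes). Organelle receptors and genes of selective autophagy had 11 of 20 above 0, a median of 0.00, 2 of 20 at an unadjusted p under 0.05 in limma and 1 of 20 without overlap. In mTORC1, AMPK and amino acid sensing, 19 of 34 were above 0 and the median was 0.02, with 3 of 34 higher and 4 of 34 lower without overlap. All 4 tested MiT factors and lysosomal membrane genes were above 0, with a median of 0.07. Whether the counts without overlap in these lists depend on the scaling was not tested.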

How the data were processed

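Per-library tables of FPKM deposited by the authors were used as given. The study's methods describe TRIzol extraction and paired-end sequencing. The submitters' processing notes name cutadapt, HISAT2 and StringTie 2.1.6 with the mouse build mm10, although every identifier is a human Ensembl gene, so the build behind the values could not be settled. Strand use is not given in the sources used here. The cell line tags carry numbers that count up across the samples, while all titles read ARPE-19. Groups came from the titles. Era+VK was compared with Era in limma 3.58.1 (R 4.3.3; empirical Bayes with a trend, two-sided) on log2(FPKM + 1) over genes whose mean FPKM reached 1, and adjusted p-values under 0.05 were called. The procedure was tested on simulated data. Members and lists were chosen with earlier results of these data known. Values are printed for the cargo receptors, the ATG8 proteins, every member called or without overlap, and the smallest p of each other role. Positions and overlaps came from GENCODE release 29 (GRCh38), by Ensembl identifier.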

Additional observations from a re-analysis of the deposited data

How the results depend on the processing

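The count of members called was 0 under each of 14 alternatives: pseudocount 0.1, no filter, at least 1 FPKM in every library, quantile normalization, rescaling without mitochondrially encoded genes, a replicate block, no variance trend, each library left out, and Era+VK replicates 2 and 3 left out together. The lowest adjusted p of any member was 0.119 (MAP1LC3B, at least 1 FPKM in every library, limma). Members without overlap numbered 4 of 36 after quantile normalization (beside 19.7% of all genes), 11 to 17 with 1 library left out (17 without Era+VK replicate 2, beside 40.8% of all genes) and 23 of 35 without Era+VK replicates 2 and 3, where smaller groups separate more often by construction. The members' median was 0.034 after quantile normalization (0.005 in all genes) and 0.05 to 0.07 with 1 library left out. Calls among the further lists numbered 0 to 1 with 1 library left out. The sign turned for CALCOCO2 (−0.015 after quantile normalization, −0.012 to 0.041 with 1 library left out) and GABARAP (−0.040 to 0.089 with 1 library left out). Under some alternatives it also turned for ATG16L1, ATG5, ATG14, ATG2A, PIK3R4, ATG101, ATG9A, ATG4B and ATG4C, each with overlapping groups. The cause was not tested. Over all genes, 74 were called, and 1 with no filter, 122 at 1 FPKM in every library, 112 after quantile normalization, 44 without the variance trend and 2 to 71 with 1 library left out (2, 3 and 5 without an Era library). The same-numbered replicates correlated at 0.071, 0.103 and 0.021 in their deviations, so the numbers were not taken to pair samples. The replicate block left 0 members, 0 genes of the further lists and 42 of all genes called, with the members' median at 0.06. Without counts, the share of the spread owed to depth could not be given.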

Other observations

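The genes below were chosen after their values were seen, and none was called over all 6 libraries. VAMP8, a SNARE of autophagosome and lysosome fusion, read 0.63, 1.70 and 0.87 FPKM in Era and 1.58, 4.78 and 4.09 in Era+VK. The difference was 1.07 (95% interval 0.35 to 1.79, adjusted p = 0.177 by limma), and the higher Era+VK values were those of replicates 2 and 3, the libraries with 235 and 228 FPKM of globin transcripts. Without Era+VK replicate 1 it was 1.43 (adjusted p = 0.0365 by limma), and without replicates 2 and 3 it was 0.35, a value from 1 Era+VK library given without a test. The part of the globin-bearing material in VAMP8 was not tested. Its partners in the fusion complex, STX17 and SNAP29, had differences of 0.13 and 0.08 without overlap between the groups.

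Of 34 genes tested in mTORC1, AMPK and amino acid sensing, 4 were lower and 3 higher without overlap, beside 7.04% and 15.1% of all genes. NPRL3, a subunit of the GATOR1 complex, was at 7.16, 7.74 and 7.80 FPKM in Era and 6.18, 5.96 and 6.70 in Era+VK (difference −0.24, interval −0.37 to −0.10, adjusted p = 0.129 by limma). DDIT4 (REDD1), which acts through the TSC complex, stood at 144, 135 and 141 FPKM in Era and 120, 128 and 123 in Era+VK (difference −0.18, adjusted p = 0.150 by limma). SESN2, a leucine sensor, gave −0.19 (adjusted p = 0.238 by limma). PRKAG2, also lower in every Era+VK library, gave −0.06 (adjusted p = 0.613 by limma). NPRL2, the partner of NPRL3, gave 0.00, TSC1 0.00 and TSC2 0.03. Higher in every Era+VK library were RRAGC, at 0.19 (adjusted p = 0.181 by limma), and PRKAB1, at 0.14 (adjusted p = 0.343 by limma). So was STK11 (LKB1), the kinase upstream of AMPK, at 0.10 (adjusted p = 0.309 by limma). MITF, a relative of TFEB and TFE3 and an RPE factor, was at 15.8, 15.5 and 15.6 FPKM in Era and 18.6, 18.6 and 16.8 in Era+VK, higher in every library (difference 0.19, interval 0.07 to 0.31, adjusted p = 0.151 by limma).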
